A study of Homo sapiens with 6 samples.

Results

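The genes described here are 10 genes of phospholipid remodelling and of ferroptosis control that does not pass through the peroxidase GPX4. They were chosen by name from the 60683 rows of the count table and all 10 had a row. They comprise 3 long-chain acyl-CoA synthetases (ACSL1, ACSL4 and ACSL5), 4 lysophospholipid acyltransferases (LPCAT1, LPCAT3, MBOAT1 and MBOAT2), the quinone reductase gene AIFM2, the tetrahydrobiopterin gene GCH1 and the polyamine acetyltransferase gene SAT1. RNA was sequenced from 143B cells, a human osteosarcoma cell line, after 24 h with PBS (3 libraries) or with TPBC-PEG (3 libraries). TPBC-PEG belongs to a study of photodynamic therapy, in which a compound forms reactive oxygen species under light. Its dose is 3 µM in the sample titles but 300 µM in the protocol for treatment and so is not settled, and it is not stated in the labels whether these cells received light. All libraries come from this single cell line. Separate cultures are not stated for the replicates, so a p-value here reflects the spread among libraries, which may be technical only.

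Ferroptosis is a form of cell death in which iron drives the peroxidation of polyunsaturated phospholipids in membranes. Acyl-CoA synthetases activate free fatty acids, and lysophospholipid acyltransferases then place them in phospholipids; ACSL4 and LPCAT3 favour polyunsaturated chains and are known to raise sensitivity, while MBOAT1 and MBOAT2 favour monounsaturated chains and are known to lower it. AIFM2 (FSP1) reduces ubiquinone and vitamin K to radical-trapping forms, and GCH1 starts the synthesis of tetrahydrobiopterin, another radical trap. SAT1 acetylates spermidine and spermine for their breakdown or export, and its induction has been tied to lipid peroxidation. Photodynamic compounds act through oxidation, and the comparison asks whether transcripts of these enzymes differed after TPBC-PEG.

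The 6 libraries held from 15726323 to 20486584 counts. Between replicates the chi-square statistic divided by its degrees of freedom was 2.19 to 4.04, above the value that sampling noise alone gives, so no library was a copy. The share of counts on mitochondrial genes was 6.32, 6.49 and 7.25% in the PBS libraries and 5.55, 5.59 and 5.77% in the TPBC-PEG libraries, so the groups did not overlap. Of 8 mesenchymal markers 6 were tested, and 4 were called lower and 1 higher, where 33.2% of all genes were called. VIM (2577 and 2344 CPM, PBS and TPBC-PEG means), SPARC (413 and 366), NT5E (107 and 89.9) and COL1A1 (27.4 and 19.7) were lower, RUNX2 (17.6 and 25.8 CPM) was higher, and ALPL (4.97 and 4.21 CPM) was not called. COL1A2 and THY1 reached at most 2 and 8 counts in a library. The part of these shifts in the members' values was not tested. Defining markers of leukocytes and endothelium did not exceed 5 counts in a library except CD14, at most 20 counts. For CD68, 85.8% of the exon length overlaps other annotated genes, so its count may understate its level. Of the epithelial markers, EPCAM was present (16.1 CPM in PBS, 17.0 CPM in TPBC-PEG libraries) while KRT5 and CDH1 reached at most 2 and 3 counts.

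All 10 genes passed the filter on low counts. SAT1 was the member with the largest change, 2.25-fold higher with TPBC-PEG (95% interval 1.99 to 2.56). AIFM2, MBOAT1 and GCH1 were 1.19-fold, 1.21-fold and 1.19-fold higher, and ACSL4 was lower, at 0.861-fold. ACSL1, ACSL5, LPCAT1, LPCAT3 and MBOAT2 did not pass the test. In counts, 4 of 10 members were higher and 1 lower where a call means a p-value under 0.05 after adjustment over the whole table (edgeR, Benjamini-Hochberg). Over all 15846 genes tested, 16.2% were called higher and 16.9% lower, 33.2% in all; with library size alone the split was 3213 higher and 1971 lower against 2574 and 2682 as reported, and the members' counts were again 4 and 1. The median log2 fold change of the members was 0.087, against 0.011 over all genes, and their median absolute log2 fold change was 0.19, against 0.17. The values of the groups did not overlap for 4 members, where 43.4% of all genes did not. The members were chosen with earlier results of these data known, so these counts and medians are descriptions only. In bulk RNA, fewer cells that express a gene and less RNA per cell cannot be told apart.

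The promoters of the 3 members whose calls held in 17 or more of 18 other settings are shown, since these carry the comparison: SAT1 and AIFM2, which rose, and ACSL4, which fell. Each is the 250 bases before the RefSeq gene start on GRCh38.p14, read 5′ to 3′ on the gene's strand, at chrX:23782923-23783172 (plus strand), chr10:70132826-70133075 (minus strand) and chrX:109733258-109733507 (minus strand). Capitals mark matches to the motifs named after the sequences.
SAT1: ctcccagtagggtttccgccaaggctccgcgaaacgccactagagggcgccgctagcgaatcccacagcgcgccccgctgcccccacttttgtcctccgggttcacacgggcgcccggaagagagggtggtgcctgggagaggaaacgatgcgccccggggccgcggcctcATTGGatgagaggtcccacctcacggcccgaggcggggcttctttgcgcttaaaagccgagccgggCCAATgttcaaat
AIFM2: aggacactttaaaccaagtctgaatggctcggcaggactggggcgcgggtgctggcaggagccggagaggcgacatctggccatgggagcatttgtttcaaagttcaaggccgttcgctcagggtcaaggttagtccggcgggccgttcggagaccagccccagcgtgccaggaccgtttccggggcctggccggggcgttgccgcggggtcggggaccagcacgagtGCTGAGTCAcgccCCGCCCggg
ACSL4: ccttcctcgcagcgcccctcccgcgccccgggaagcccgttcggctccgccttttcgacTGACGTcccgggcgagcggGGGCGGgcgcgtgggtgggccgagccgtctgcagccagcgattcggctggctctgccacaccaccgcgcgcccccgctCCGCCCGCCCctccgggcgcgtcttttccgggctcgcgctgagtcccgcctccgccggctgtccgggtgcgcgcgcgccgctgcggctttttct
Both strands were searched for TGATGNAA (the composite element of C/EBP and ATF factors), TGACNNNGC (the core of the antioxidant response element), TGANTCA (AP-1), TGACGT (part of the cyclic AMP response element), CCAAT (the box bound by NF-Y), GGGCGG (a GC box) and CACGTG (an E-box). The SAT1 window held CCAAT at 13 bases and, on the other strand, at 79 bases before the gene start. The AIFM2 window held TGANTCA at 20 bases before the start, inside a match to TGACNNNGC on the other strand that begins at 22 bases, and a GC box at 9 bases. The ACSL4 window held TGACGT at 191 bases and 3 GC boxes, of which a pair overlaps. The annotations differ in where these genes start: in GENCODE 29, 109 bases of the AIFM2 window, with all of its matches, and 146 bases of the ACSL4 window, with 2 of its 4 matches, lie inside the gene, while the SAT1 window ends at the gene start in both. Of all 35116 RefSeq windows of this length, 32.0% held CCAAT, 42.6% GGGCGG, 10.9% TGACNNNGC, 6.57% TGANTCA, 7.10% TGACGT, 3.14% TGATGNAA and 6.35% CACGTG. A window was found for 8 of the 10 members, and MBOAT1 and GCH1 had no entry.

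Levels between genes were compared per kilobase of exon (FPKM). With PBS, ACSL4 stood highest at 52.5 ± 2.2 FPKM (mean ± SD, n = 3), followed by LPCAT1 at 26.1 ± 0.491. ACSL1 (7.4 ± 0.139), MBOAT1 (6.89 ± 0.393) and AIFM2 (6.75 ± 0.366 FPKM) came next, and MBOAT1 and AIFM2 lay within their spread of each other. SAT1 (4.77 ± 0.486), GCH1 (4.7 ± 0.568) and LPCAT3 (4.25 ± 0.424 FPKM) did not differ beyond their spread, MBOAT2 stood at 3.4 ± 0.137 and ACSL5 at 0.133 ± 0.0277 FPKM. With TPBC-PEG the order was the same at the top and bottom, and SAT1, at 10.7 ± 0.855 FPKM, moved from the sixth place to the third. Exon lengths are unions over all annotated transcripts, so a gene whose main transcript is shorter than the union has its FPKM understated. LPCAT3 shares 65.6% of its exon length with EMG1 on the opposite strand, so its place in this order is uncertain.

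**Figure D1:**
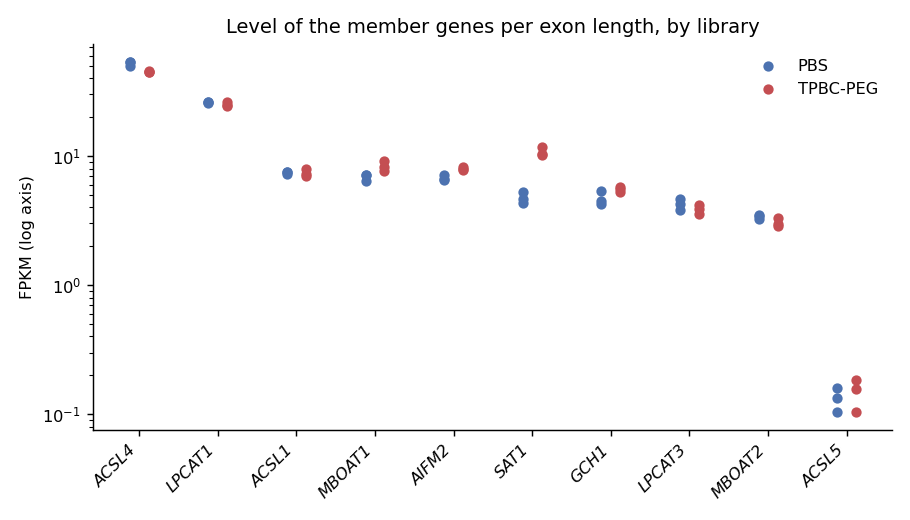
Level of each member gene per exon length (FPKM, log axis) in the 3 PBS and 3 TPBC-PEG libraries, 1 point per library, ordered by the PBS mean. ACSL4 and LPCAT1 stand above the rest in both groups, ACSL5 lies far below, and the TPBC-PEG points of SAT1 lie above its PBS points.

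Among the acyl-CoA synthetases, ACSL4 mRNA fell slightly, and ACSL1 and ACSL5 did not pass the test. ACSL4 (chromosome X, 109624244 to 109733403, GRCh38) activates arachidonic and adrenic acid. It was measured at 343, 320.3 and 346 CPM (read counts scaled to library size) in the PBS libraries and at 294, 289.5 and 285 CPM with TPBC-PEG. Every TPBC-PEG library lay below every PBS library. The mean fell from 336 ± 14.1 to 289.7 ± 4.32 CPM, or -0.22 ± 0.038 on the log2 scale (SE; 0.861-fold, 95% interval 0.817 to 0.907; edgeR adjusted p = 8.08e-06). The fall passed in 17 of 18 other settings, the exception being the test against a 1.5-fold change, with values from -0.27 to -0.11.

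ACSL1 (chromosome 4, 184755595 to 184826818), which activates mainly saturated and monounsaturated long chains, was measured at 46.9, 45.5 and 47.1 CPM with PBS and at 49.8, 45.7 and 43.8 CPM with TPBC-PEG. The groups overlapped, and the 95% interval of the difference ran from 0.919-fold to 1.09-fold (edgeR adjusted p = 0.995). ACSL5 (chromosome 10, 112374018 to 112428380), a synthetase known from intestine and mitochondria, had only 7 to 16 counts per library. Its level was 0.678, 0.443 and 0.568 CPM with PBS and 0.668, 0.771 and 0.439 CPM with TPBC-PEG. At this depth its change could lie anywhere between 0.615-fold and 2.07-fold, and a difference was not detectable.

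The family's makeup shifted with ACSL4. Of the summed FPKM of ACSL1, ACSL3, ACSL4, ACSL5 and ACSL6, ACSL4 took 67.4% ± 1.17 (SD, n = 3) in the PBS libraries and 64.1% ± 0.538 in the TPBC-PEG libraries, and ACSL3, which serves monounsaturated chains and lipid droplets, took 22.9% ± 1.13 and 25.2% ± 0.245. These shares are descriptions with no test. ACSL3 itself was at 128.9 ± 3.1 and 128.3 ± 3.51 CPM, a log2 fold change of -0.0055 ± 0.042 (SE), and did not pass. Of 13 other acyl-CoA synthetase genes 10 were tested, 1 was higher and 0 lower (median log2 fold change -0.0082; 0 lower also at an unadjusted p under 0.05, by DESeq2 and by limma-voom). The gene that rose was ACSS1, which activates acetate in mitochondria, at 0.56 ± 0.10 (SE). Over all genes, 16.2% were called higher and 16.9% lower.

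**Figure D2:**
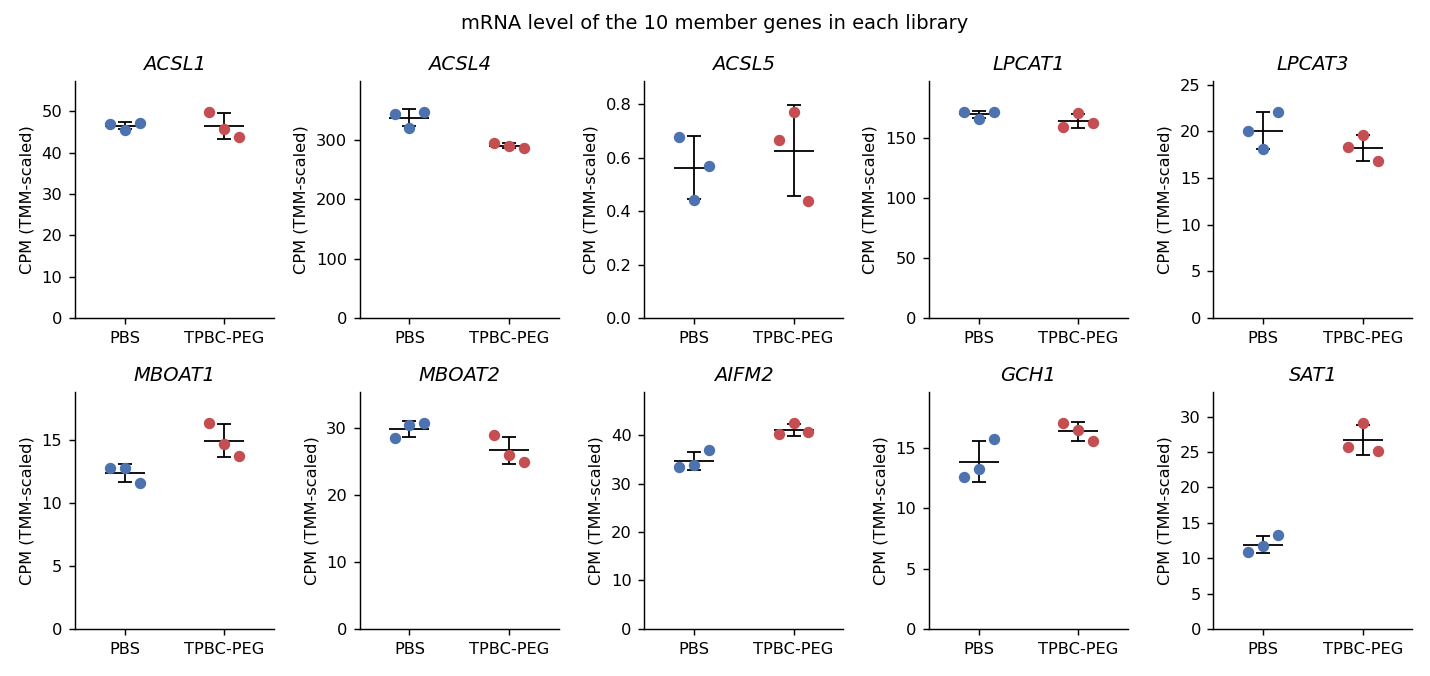
Level of the 10 member genes (TMM-scaled CPM, linear axes from 0) in each PBS and TPBC-PEG library, 1 point per library, with the mean and SD (n = 3) as black bars. The groups are apart for SAT1, AIFM2, MBOAT1 and ACSL4 and overlap for the other 6 genes.

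Of the 4 acyltransferase genes, MBOAT1 was called higher, and MBOAT2, LPCAT1 and LPCAT3 did not pass the test. MBOAT1 (chromosome 6, 20102145 to 20212399), which is known to place oleate in lysophosphatidylethanolamine and lysophosphatidylserine, was measured at 12.8, 12.7 and 11.5 CPM with PBS and at 16.3, 14.7 and 13.7 CPM with TPBC-PEG. The lowest TPBC-PEG library lay above the highest PBS library. The log2 fold change was 0.27 ± 0.10 (SE; 1.21-fold, 95% interval 1.05 to 1.39; edgeR adjusted p = 0.0317). The call is fragile: the MBOAT1 adjusted p was 0.137 without PBS replicate 3, 0.212 without TPBC-PEG replicate 1, 0.0612 without TPBC-PEG replicate 2, 0.0605 with no filter on low counts and 0.0924 with DESeq2.

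MBOAT2 (chromosome 2, 8852690 to 9003813), known to act on lysophosphatidylethanolamine, was measured at 28.6, 30.4 and 30.8 CPM with PBS and at 28.98, 26.03 and 25.02 CPM with TPBC-PEG. TPBC-PEG replicate 1 lay above PBS replicate 1, so the groups overlapped. The log2 difference of -0.16 ± 0.074 (SE; 95% interval 0.806-fold to 0.99-fold) did not reach the threshold (edgeR adjusted p = 0.0843). MBOAT2 was called lower without TPBC-PEG replicate 1 (-0.23, adjusted p = 0.0359) and with a trend on GC content removed (-0.21, adjusted p = 0.0168). The ratio of MBOAT1 to MBOAT2 FPKM was 2.03 ± 0.18 (SD, n = 3) in the PBS libraries and 2.74 ± 0.0412 in the TPBC-PEG libraries, given as a description. In CPM the order was the reverse, with means of 12.4 for MBOAT1 and 29.9 for MBOAT2 with PBS. A ratio above 1 thus rests on the annotated exon lengths of 1794 and 8798 bases.

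LPCAT1 (chromosome 5, 1456480 to 1523977), which makes saturated phosphatidylcholine as in lung surfactant, was measured at 171, 166 and 172 CPM with PBS and at 159, 171 and 162 CPM with TPBC-PEG. The groups overlapped, and the 95% interval ran from 0.915-fold to 1.02-fold (adjusted p = 0.391). LPCAT3 (chromosome 12, 6976186 to 7018510), which loads arachidonate and linoleate into phosphatidylcholine and phosphatidylethanolamine, was measured at 20.1, 18.1 and 22.1 CPM with PBS and at 18.3, 19.6 and 16.8 CPM with TPBC-PEG. Its groups overlapped as well, with an interval from 0.807-fold to 1.03-fold (adjusted p = 0.273). LPCAT3 shares 65.6% of its exon length with EMG1 on the opposite strand. EMG1, a ribosome biogenesis gene, fell from 101 ± 3.13 to 86.2 ± 2.51 CPM, and its part in the LPCAT3 values was not tested, as no strand setting is named for the counting.

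Of 15 other lysophospholipid and glycerophosphate acyltransferase genes 14 were tested, and 4 were higher and 4 lower, with a median log2 fold change of -0.0010. Over all genes, 16.2% were called higher and 16.9% lower. GPAT3, which makes lysophosphatidic acid from glycerol phosphate, rose by 0.44 ± 0.074 (SE) and LPGAT1, an acyltransferase of lysophospholipids, by 0.29 ± 0.05. AGPAT2, which makes phosphatidic acid, was at -0.28 ± 0.096 and LPCAT4 at -0.20 ± 0.056, both called lower. AGPAT2 was not called without PBS replicate 2 or without TPBC-PEG replicate 1 or 3 (edgeR adjusted p = 0.214, 0.0692 and 0.0753), nor with library size alone, DESeq2 or the GC trend removed. MBOAT7, the paralog that loads arachidonate into phosphatidylinositol, was at -0.19 ± 0.057 and was called, but not without PBS replicate 1 (adjusted p = 0.0736) or TPBC-PEG replicate 2 (0.0828), nor with library size alone or the expression level trend removed. LPCAT2, the nearest relative of LPCAT1, was at -0.0015 ± 0.097.

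**Figure D3:**
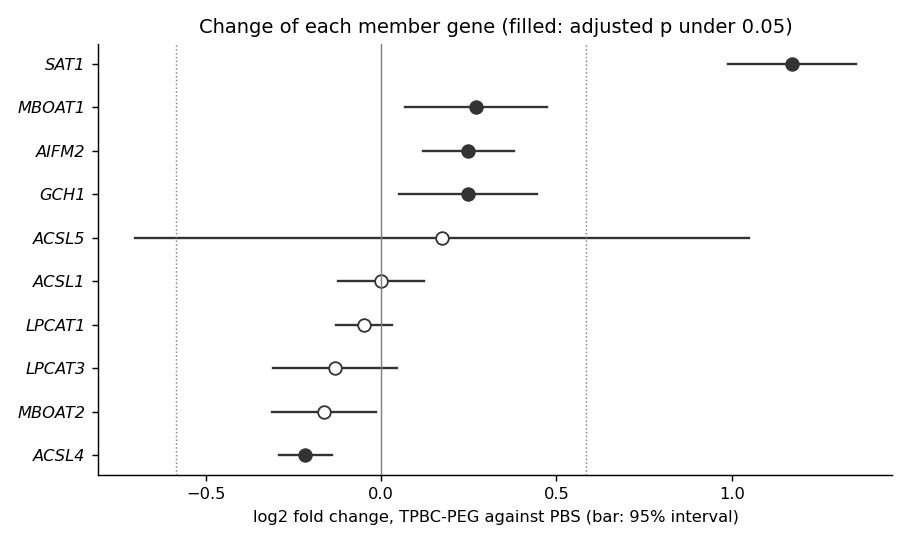
Log2 fold change of each member gene, TPBC-PEG against PBS, with its 95% interval; filled points have an adjusted p under 0.05 and dotted lines mark a 1.5-fold change. The interval of SAT1 lies wholly beyond the 1.5-fold line, and that of ACSL5 is the widest.

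Of the suppressor genes, AIFM2 rose modestly and GCH1 rose at the edge of the threshold. AIFM2 (chromosome 10, 70098223 to 70132934) was measured at 33.4, 33.8 and 36.8 CPM with PBS and at 40.2, 42.6 and 40.6 CPM with TPBC-PEG. All TPBC-PEG libraries lay above all PBS libraries. The log2 fold change was 0.25 ± 0.065 (SE; 1.19-fold, 95% interval 1.09 to 1.3; edgeR adjusted p = 0.002). The rise passed in 17 of 18 other settings, all but the test against a 1.5-fold change, with values from 0.21 to 0.29. Per exon length AIFM2 stood at 0.159 ± 0.0105 of the level of GPX4 with PBS and at 0.181 ± 0.0125 with TPBC-PEG. GPX4, the peroxidase that reduces phospholipid hydroperoxides, was at 85.9 ± 4.61 and 89.7 ± 3.75 CPM and did not pass (0.061 ± 0.049, SE); with the GC trend removed it was called higher (0.14, adjusted p = 0.00962).

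GCH1 (chromosome 14, 54842008 to 54902852) was measured at 12.6, 13.3 and 15.8 CPM with PBS and at 17.1, 16.5 and 15.6 CPM with TPBC-PEG. PBS replicate 3 lay above TPBC-PEG replicate 3, so the groups overlapped. The log2 fold change was 0.25 ± 0.098 (SE; 1.19-fold, 95% interval 1.04 to 1.36; edgeR adjusted p = 0.0443). The GCH1 call was lost in 10 of 18 other settings, among them those without PBS replicate 1 (adjusted p = 0.236), PBS replicate 2 (0.13), TPBC-PEG replicate 1 (0.162) and TPBC-PEG replicate 2 (0.11), although the sign was the same in all 18.

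None of the other tetrahydrobiopterin genes was called higher, where 16.2% of all genes were called higher and 16.9% lower. Of 8 tested 0 were higher and 2 lower, with a median log2 fold change of -0.16, and 0 were higher also at an unadjusted p under 0.05 (edgeR), by DESeq2 and by limma-voom. SPR, the reductase of the last step of synthesis, was at -0.26 ± 0.081 (SE) and was called lower, but not without TPBC-PEG replicate 1 (adjusted p = 0.0519). GCHFR, the feedback regulator protein that binds GCH1, was at 3.25 ± 0.213 and 2.43 ± 0.41 CPM and did not pass (adjusted p = 0.115); 75.2% of its exon length overlaps other annotated genes. PTS, the enzyme after GCH1, was at 0.017 ± 0.084.

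Of 21 genes tested in the ubiquinone and vitamin K list, which also holds the N-myristoyltransferase genes NMT1 and NMT2, 2 were higher and 5 lower (median -0.047), where 33.2% of all genes were called. NQO1, another quinone reductase, rose by 0.26 ± 0.041 (SE) and COQ10B, a ubiquinone-binding protein, by 0.23 ± 0.063. PDSS1, which makes the polyprenyl tail, was at -0.29 ± 0.072 and COQ3, a methyltransferase of the ring, at -0.25 ± 0.079, both lower. COQ3 was not called without PBS replicate 3 (adjusted p = 0.0585).

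SAT1 (chromosome X, 23783173 to 23786226) changed the most of the members. It was measured at 10.8, 11.7 and 13.2 CPM with PBS and at 25.8, 29.2 and 25.2 CPM with TPBC-PEG, from 208 to 211 counts per PBS library and 402 to 605 per TPBC-PEG library. The lowest TPBC-PEG library was far above the highest PBS library. The mean rose from 11.9 ± 1.21 to 26.7 ± 2.14 CPM, or 1.17 ± 0.091 on the log2 scale (SE; edgeR adjusted p = 4.79e-15). This was larger in size than the change of 98.8% of all genes tested. SAT1 was called in all 18 other settings, with values from 1.10 to 1.25, and was the 1 member that passed the test against a 1.5-fold change (edgeR adjusted p = 7.58e-07). Of all genes, 0.827% passed that test as higher and 0.0884% as lower. SAT1 pre-mRNA is known to be spliced also into a form that is degraded, and counts per gene do not separate the forms.

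**Figure D4:**
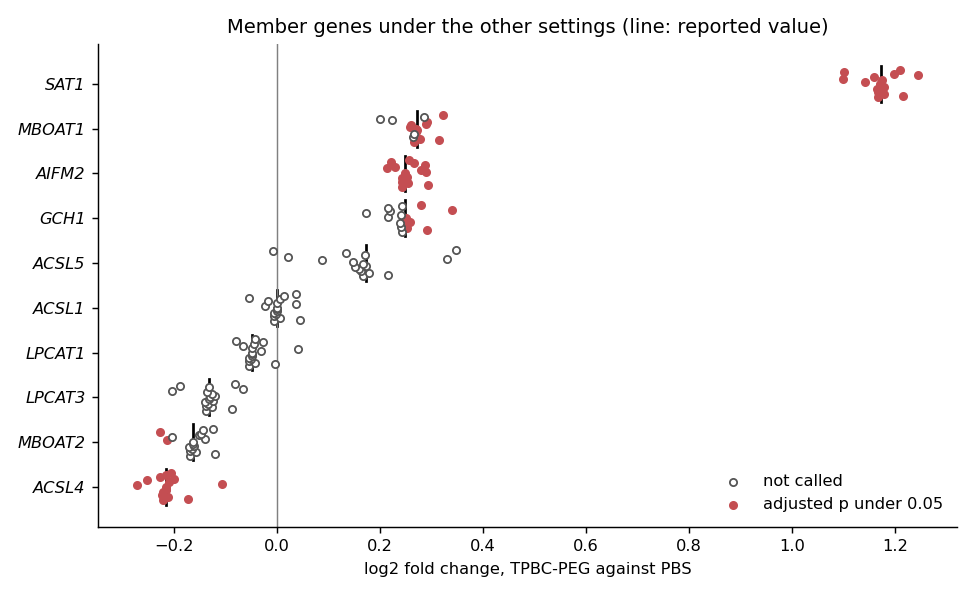
Log2 fold change of each member gene under 17 other settings (points, offset vertically for display; filled red where the adjusted p is under 0.05), with the reported value as a black line; the test against a 1.5-fold change is left out because it gives the reported value, and ACSL5 has no point for the filter of 1 CPM in 3 libraries, which it did not pass. SAT1, AIFM2 and ACSL4 are filled in all of these settings, MBOAT1, GCH1 and MBOAT2 in part, and the points of ACSL1, ACSL5 and LPCAT1 lie on both sides of 0.

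The other polyamine genes fell into higher and lower members. Of 20 genes 18 were tested, and 4 were higher and 6 lower (median -0.022), where 33.2% of all genes were called. SLC3A2, the heavy chain of amino acid transporters that has been linked to polyamine export, rose by 1.06 ± 0.042 (SE), and ARG2, which makes ornithine, by 0.74 ± 0.064, although 37.4% of its exon length overlaps other genes. SRM, spermidine synthase, was at -0.34 ± 0.051 and EIF5A, the protein that carries the spermidine-derived amino acid hypusine, at -0.34 ± 0.038, both lower. Named after their values were seen, SMOX, spermine oxidase, rose from 19.9 ± 1.61 to 30.3 ± 1.97 CPM (0.61 ± 0.079, SE) and SAT2, a paralog of SAT1, by 0.33 ± 0.093. PAOX, another polyamine oxidase gene, had at most 4 counts in a library and did not pass the filter on low counts. ODC1, which makes putrescine, was at -0.093 ± 0.038 and did not pass (adjusted p = 0.0526); it was called lower in 4 other settings and its sign turned in 1. Per exon length, SAT1 stood at 0.0567 ± 0.00394 of ODC1 with PBS and at 0.136 ± 0.00902 with TPBC-PEG.

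Genes that supply or use the same lipids changed in part. Of 14 desaturase and elongase genes tested 6 were higher and 4 lower (median 0.00092), where 33.2% of all genes were called. FADS1 and FADS2, the desaturases that make polyunsaturated chains, rose by 0.45 ± 0.041 and 0.43 ± 0.067 (SE), while ELOVL2, an elongase of polyunsaturated chains, and SCD5, a stearoyl-CoA desaturase, were lower, at -0.38 ± 0.11 and -0.29 ± 0.066. ELOVL2 was not called without PBS replicate 1 (adjusted p = 0.0585) or TPBC-PEG replicate 2 (0.0527). SCD and ELOVL5 were named after their values were seen. SCD, a stearoyl-CoA desaturase more abundant than SCD5 (73.7 and 10.0 FPKM with PBS), was called higher, at 0.21 ± 0.036 (SE). ELOVL5, an elongase more abundant than ELOVL2 (75.1 and 2.92 FPKM with PBS), did not pass, at 0.029 ± 0.037. Of 14 phospholipase A2 and related lipase genes tested 1 was higher and 0 lower (median 0.040; 0 lower also at an unadjusted p under 0.05 by edgeR, by DESeq2 and by limma-voom). That gene was PNPLA8, a calcium-independent phospholipase, which rose from 20.8 ± 1.44 to 34.6 ± 3.25 CPM (0.74 ± 0.078, SE).

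Of 12 ether phospholipid genes, all tested, 3 were higher and 1 lower (median -0.0025), where 33.2% of all genes were called. PEX5, the peroxisomal import receptor, was at 0.23 ± 0.064 (SE) and PEX3, a peroxisome assembly gene, at 0.23 ± 0.076, both higher, and AGPS, which forms the ether bond, was lower at -0.26 ± 0.041. PEX5 was not called without PBS replicate 1 (adjusted p = 0.0653), and PEX3 not without PBS replicate 2 or 3 or TPBC-PEG replicate 3 (adjusted p = 0.0611, 0.126 and 0.146), nor with DESeq2 or the GC trend removed. Of 12 lipid peroxidation genes 8 were tested, and 1 was higher and 2 lower (median 0.025). ALOXE3, an epidermal lipoxygenase gene, rose from a low level of 3.49 ± 0.748 to 6.61 ± 0.839 CPM (0.90 ± 0.17, SE), PEBP1, a lipoxygenase partner, was at -0.19 ± 0.048 and CYB5R3 at -0.16 ± 0.048. CYB5R3 was not called without TPBC-PEG replicate 2 (adjusted p = 0.0707), nor with library size alone or either trend removed. The oxidoreductase genes POR and CYB5R1, named after their values were seen, did not pass, at 0.060 ± 0.092 and 0.022 ± 0.079 (SE). ALOX12, ALOX15 and ALOX15B, lipoxygenases often named in ferroptosis, had at most 4 counts in any library.

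Of the 14 core ferroptosis genes, all tested, 8 were higher and 1 lower (median 0.32), where 16.2% of all genes were called higher and 16.9% lower. SLC7A11, the cystine importer, was 2.11 ± 0.07 (SE) higher and PTGS2 2.16 ± 0.089 higher on the log2 scale, both larger than the change of SAT1, and NCOA4, the ferritin autophagy receptor, was at -0.14 ± 0.039 and was not called with library size alone or with the expression level trend removed. These 3 genes' directions were known from earlier results of the same libraries, and the list was chosen with such results known. Neither these genes nor the count and median of the list add separate evidence.

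**Figure D5:**
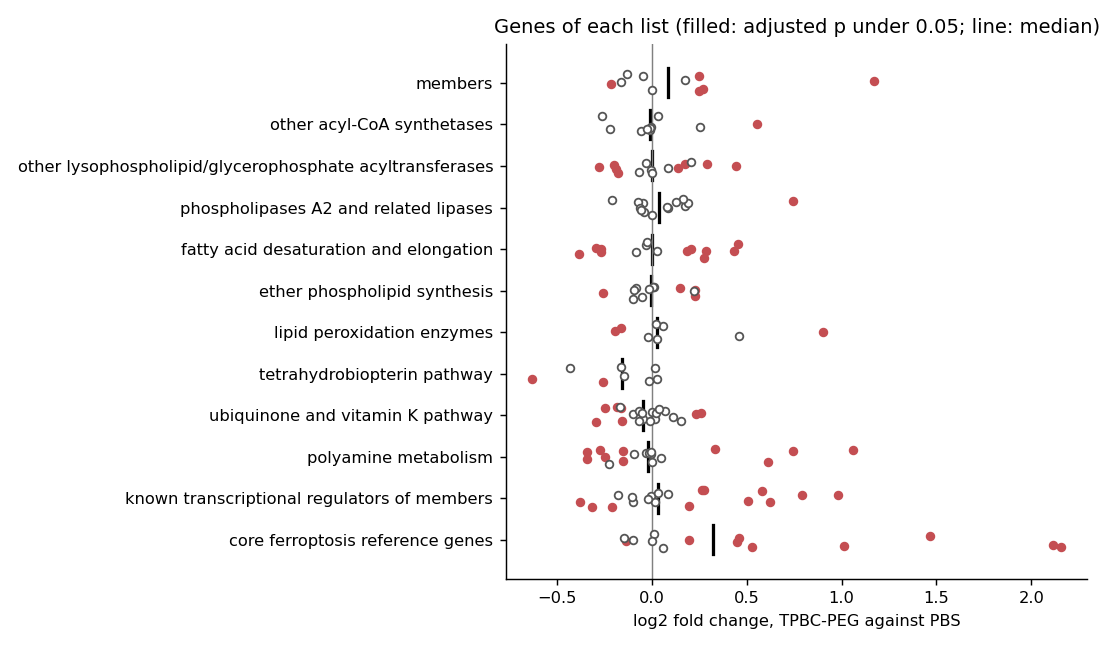
Log2 fold change, TPBC-PEG against PBS, of each tested gene in the member list and the 11 other lists (points, offset vertically for display; filled red where the adjusted p is under 0.05), with the median of each list as a black line. The medians lie near 0 except for the core ferroptosis genes at 0.32 and the tetrahydrobiopterin genes at -0.16. All lists were chosen with earlier results of these libraries known.

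By the root mean square distance between log2 CPM profiles, each centred on its mean over the 6 libraries, the genes most like SAT1 among 14523 were UPP1, a uridine phosphorylase (0.052), HSP90B1, an endoplasmic reticulum chaperone (0.064), and the antisense transcript EML2-AS1 (0.073). The genes most like ACSL4 were SRD5A1, a steroid reductase (0.015), SNRPD1, a spliceosome core protein (0.016), and G3BP1, a stress granule protein (0.018). UPP1 went from 74.3 ± 3.03 to 163 ± 12.7 CPM, and SRD5A1 from 54.5 ± 1.67 to 46.8 ± 0.805 CPM.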

How the data were processed

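RNA of 6 libraries was measured by sequencing. The deposited table holds raw counts of reads for each Ensembl gene and library. The submitters' processing notes name HISAT2 and GRCh38; version, counter, annotation and strand setting are not given in the sources here. If strand was ignored, reads from exons shared with a partner on the other strand cannot be assigned to either gene. Whether the counting shared or dropped such reads is not stated. Sample titles gave groups and replicate numbers. Of 60683 rows 42013 had a symbol, and coordinates, exon lengths and overlaps came from GENCODE 29 (GRCh38).

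Counts were compared with edgeR 4.0.16 in R 4.3.3, with limma 3.58.1 and DESeq2 1.42.0 for other settings. The filter was filterByExpr (minimum count 10, minimum total 15), the scaling TMM, and the test glmQLFit (robust) with glmQLFTest and only the group as a term. P-values were adjusted by Benjamini and Hochberg over all 15846 genes, with a threshold of 0.05. Standard errors came from the F statistic, and mean ± SD cover 3 libraries a group. Log2 CPM used a prior count of 2. Reads carry no molecular identifiers, so counting error alone is too small an error.

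The members and the 11 other lists (169 entries, 152 tested) were chosen with earlier results of these data known. Named were all members, GPX4, near relatives and partners of members, up to 2 called genes per list and direction (largest change, at least 1 CPM; the 2 most abundant where none was called), and the 3 genes nearest in profile to the members that rose and fell most. Some genes that this rule names are not reported here. On simulated counts (TPBC-PEG against PBS, 15606 genes, 200 changed) the test recovered 72% of 1.25-fold and 100% of 1.5-fold changes, and 11 of 197 calls were false. The changed genes were drawn from those with higher counts, and every gene had the same dispersion. These shares therefore do not apply to ACSL5 and may be too high for genes with more spread. Other settings were DESeq2 size factors, library size alone, upper quartile scaling, no filter, 1 CPM in 3 libraries, DESeq2, limma-voom, non-robust estimates, testing against 1.5-fold, the replicate number as a block, removal of a lowess trend (span 0.3) with GC content or expression level, and leaving out each library. Figures used matplotlib 3.10.9.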

Additional observations from a re-analysis of the deposited data

How the results depend on the processing

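Of the 4 member genes called higher and 1 called lower, SAT1 was called in all 18 other settings and AIFM2 and ACSL4 in 17 each; every member that was called had the same sign in all 18. Members called higher numbered 2 with no filter on low counts and 2 with DESeq2, where MBOAT1 and GCH1 were lost, and members called lower numbered 2 with the GC trend removed, where MBOAT2 was added. Tested against a 1.5-fold change, 1 member was higher (SAT1) and 0 lower, and over all genes 131 were higher and 14 lower; this test asks for a larger change. Leaving out each library in turn gave 2 to 4 members higher and 1 to 2 lower, and over all genes 1987 to 2347 higher and 2141 to 2515 lower; with 2 libraries in an arm the spread is pooled over both arms. GCH1 was also lost with DESeq2 size factors, the GC trend removed and the expression level trend removed (edgeR adjusted p = 0.05002, 0.0753 and 0.0547). Scaling by library size alone gave 3213 genes higher and 1971 lower, and removing the expression level trend 3016 and 1953. The cause of these differences was not tested.

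Same-numbered libraries had deviations from their group means that correlated at 0.0034, 0.065 and -0.015 across genes. Differently numbered libraries gave -0.055 to 0.051. These values show no clear pairing by replicate number but cannot show that it was absent. With the replicate block 2531 genes were higher and 2644 lower, and 4 members were higher and 1 lower. Depth limits ACSL5 most, with 66 counts over all 6 libraries.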

Other observations

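Among 20 transcription factor genes known to act on members, 19 were tested, and 8 were higher and 3 lower (median log2 fold change 0.032). Over all genes, 16.2% were called higher and 16.9% lower. ATF3, a stress-induced factor, rose by 0.98 ± 0.16 (SE) and KLF4 by 0.79 ± 0.11, while PPARD and SREBF1, lipid metabolism factors, were lower, at -0.38 ± 0.065 and -0.32 ± 0.068. The following were named after their values were seen. PPARA and PPARG, relatives of PPARD, were called higher, at 0.63 ± 0.10 and 0.58 ± 0.078. SREBF2, a relative of SREBF1, was also called higher, at 0.26 ± 0.048. NFE2L2, which encodes NRF2, a known activator of AIFM2, rose by 0.27 ± 0.046. ESR1, an estrogen receptor gene known to drive MBOAT1, had at most 5 counts in a library.

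MTAP, the enzyme that salvages methylthioadenosine left by polyamine synthesis, had 3 counts in all 6 libraries together, and its neighbours on chromosome 9, CDKN2A and CDKN2B, had 3 each, while KLHL9, within 500 kb on the same side as the interferon genes, had 10124. DNA was not analysed here, and the reason for the low counts was not tested.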
